A study of Mus musculus with 11 samples.

Results

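The transcription factor NRF2, its inhibitor KEAP1 and 8 genes that NRF2 is known to switch on were followed in mouse hippocampal neural stem cells (NSCs) treated with 4HBP. The 10 genes were taken by symbol (Nfe2l2, which encodes NRF2, Keap1, Gclc, Gclm, Gsr, Txnrd1, Srxn1, Hmox1, Nqo1 and Osgin1) out of 53801 genes listed per library, and all 10 passed the filter on low counts that left 15920 genes for testing. 4HBP is named 4-hydroxybenzoic acid in the sample labels and 4-hydroxybenzophenone, a metabolite of a sunscreen ingredient, in the study's methods. The study asked how the compound changes gene expression in NSCs kept dividing or allowed to differentiate.

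Primary NSCs from the embryonic mouse hippocampus were grown for 7 days with 1 µM 4HBP or with its solvent, EtOH, and sequenced as bulk poly(A) RNA. Proliferation medium contained the growth factors EGF and bFGF and gave 3 libraries with 4HBP and 3 control libraries. Differentiation medium lacked both growth factors and gave 3 libraries with 4HBP and 2 control libraries. No genotype, strain or number of embryos is given in the labels, and they do not say whether replicates were separate cultures, so the p-values measure only the spread between these samples, which may be technical.

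In unstressed cells KEAP1 holds NRF2 in the cytoplasm and delivers it to a CUL3 ubiquitin ligase for degradation. Oxidants and electrophiles modify KEAP1, NRF2 then accumulates in the nucleus, pairs with a small MAF protein and binds antioxidant response elements in genes for glutathione synthesis, thioredoxin and haem breakdown. Much of this control acts on NRF2 protein, which RNA sequencing does not measure, and in brain cultures the pathway is best known from astrocytes.

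The deposited expected counts, which are estimates of the reads per gene, summed to between 20822921 and 23438463 per library, so that 3 counts corresponded to 0.128 to 0.144 counts-per-million (CPM). The third 4HBP library in proliferation medium stood apart from its replicates, with a mean chi-square per gene of 25.6 and 23.0 against them, where those replicates differed from each other by 5.62. Neural stem cell markers (6 genes, summed CPM) were at 3303 to 4191 with growth factors and at 1137 to 1295 without them. Prom1 went against this sum, at 16.2 CPM in proliferation controls and 51.6 CPM in differentiation controls on average. Microglial markers summed to at most 3.63 CPM and endothelial markers to at most 2.56 CPM. Neuronal markers summed to between 909 and 1018 CPM in all 11 libraries. Map2 made up most of this sum and averaged 810 CPM in proliferation controls and 686 CPM in differentiation controls. The other neuronal markers, Tubb3, Dcx, Rbfox3, Stmn2 and Snap25, averaged higher in differentiation controls (Dcx at 181 against 117 CPM).

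The 10 genes differed widely in abundance, compared here as transcripts-per-million (TPM), a level corrected for gene length. In control cells in proliferation medium Nfe2l2 was the most abundant, at 112 TPM ± 17.4 (SD, n = 3), with Txnrd1 at 97.1 TPM ± 8.29 overlapping it. Gclm at 75.5 TPM ± 2.90 and Hmox1 at 75.0 TPM ± 15.6 overlapped each other, as did Gclc at 42.5 TPM ± 3.01 and Srxn1 at 37.7 TPM ± 11.2, and then Gsr at 24.7 TPM ± 2.81 and Keap1 at 22.7 TPM ± 1.23. Nqo1 and Osgin1 were the least abundant, at 2.50 TPM ± 0.395 and 2.06 TPM ± 0.671, and their ranges overlapped. Txnrd1 and Hmox1 also overlapped, and no other genes of different pairs did.

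Under 4HBP in the same medium Nfe2l2 stayed highest, at 187 TPM ± 15.8 (n = 3), and Hmox1 came second by its mean, at 146 TPM ± 26.2, though its range overlapped those of Nfe2l2 and Txnrd1. In differentiation medium with 4HBP, Hmox1 (134 TPM ± 5.64), Nfe2l2 (130.3 TPM ± 3.57) and Txnrd1 (127 TPM ± 3.23) overlapped as the leading genes.

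**Figure D1:**
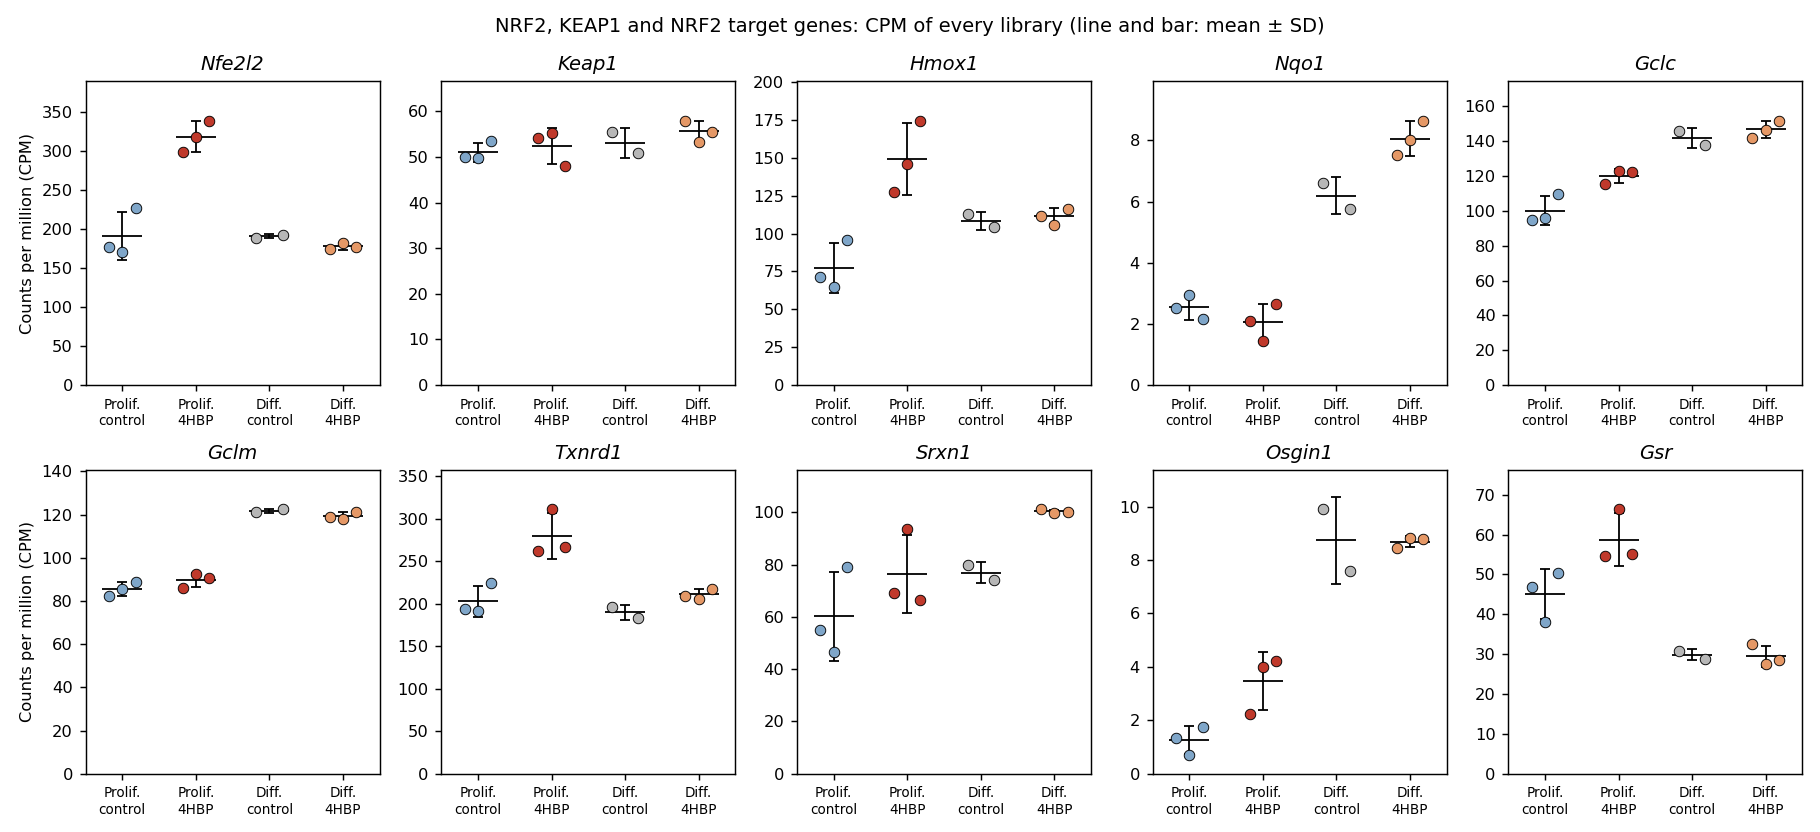
CPM (linear axis from 0) of the 10 genes in each of the 11 libraries, as points grouped by medium and treatment, with the group mean and SD as a line and bar (n = 3, and 2 for differentiation controls). In proliferation medium, Nfe2l2, Hmox1, Gclc, Txnrd1, Osgin1 and Gsr show every 4HBP point above every control point, and in differentiation medium the treated and control points lie close together for most genes.

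The antioxidant response element is a short sequence, and its core, searched on both strands as TGACNNNGC or TGAGNNNGC, was looked for in RefSeq promoters (GRCm38.p6, from 250 bases before to 50 bases after a start site). Promoters were matched for 7 of the 10 genes, 9 promoters in all with 3 starts for Txnrd1. Of these 7 genes 5 held a match, each in 1 promoter, so 5 of the 9 promoters did. Of 32851 mouse promoters of this length 27.8% hold a match (12.4% hold the TGAC form and 17.6% the TGAG form). The stretches around the matches upstream of the start are printed in the direction of the gene, with the matched 9 bases in capitals, to show how the sites differ between genes that rose with 4HBP (Nfe2l2, Txnrd1, Osgin1) and genes that did not pass the test (Gclm, Srxn1).
Nfe2l2, chr2:75704885-75704913, minus strand: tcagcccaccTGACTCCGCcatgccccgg
Txnrd1, second start, chr10:82859104-82859132, plus strand: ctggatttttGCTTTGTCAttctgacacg
Osgin1, chr8:119437038-119437066, plus strand: aggggcccctGCTGACTCAcgcttatgaa
Gclm, chr3:122245413-122245441, plus strand: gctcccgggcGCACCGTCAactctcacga
Srxn1, chr2:152105356-152105497, plus strand: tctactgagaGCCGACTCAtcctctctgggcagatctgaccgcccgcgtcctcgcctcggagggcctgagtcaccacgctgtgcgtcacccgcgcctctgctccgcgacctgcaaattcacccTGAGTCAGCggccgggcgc
Srxn1 was the only one of these genes with more than 1 match, 2 upstream of its start and another after it. In 2 of the 7 matches, the second of Srxn1 and that of Osgin1, the core also held the AP-1 site TGACTCA (read on either strand), which 5.20% of all promoters hold. No match was found for Keap1 or Nqo1 in this window. Hmox1, Gclc and Gsr had no promoter in the table used. A match describes letters only, and binding of NRF2 was not measured.

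In proliferation medium 4HBP raised 6 of the 10 genes and lowered 0, by edgeR's quasi-likelihood test with Benjamini-Hochberg adjustment over all genes tested, at an adjusted p under 0.05. Among all 15920 genes 16.8% were called, 8.59% as higher and 8.17% as lower. The median log2 fold change of the 10 genes was 0.33, and that of all genes tested was −0.0011. In 6 of the 10 genes the CPM of the groups did not overlap, which held for 30.0% of all genes. The 10 genes were chosen with earlier results of these data known. Here and below, their shares beside those of all genes are therefore a description and not a test. In bulk RNA, fewer cells of a type and less RNA per cell cannot be told apart, and cell type markers moved with the treatment: astrocyte markers summed to between 3277 and 3975 CPM with 4HBP and between 4648 and 5632 CPM in controls, and markers of dividing cells to between 439 and 788 CPM against 806 and 939 CPM. Oligodendrocyte lineage markers summed to between 2006 and 3246 CPM with 4HBP and between 3098 and 3739 CPM in controls, and these ranges overlapped. Of these markers, Olig2 averaged 286 CPM with 4HBP and 284 CPM in controls. The part of the cell type markers in the changes of the 10 genes was not tested.

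The message for NRF2 itself rose. Nfe2l2 (ENSMUSG00000015839, chr2:75675513-75704641, minus strand) stood at 299, 318 and 339 CPM in the 4HBP libraries and at 177, 170.3 and 227 CPM in the controls. All 3 treated libraries lay above all 3 controls, and the third control was the highest of its group. The increase was 1.63-fold (log2 fold change 0.70 ± 0.09 SE, adjusted p = 0.00044 by edgeR).

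Keap1 (ENSMUSG00000003308, chr9:21229730-21239361, minus strand), which encodes the adaptor that marks NRF2 for degradation, stood at 54.2, 55.3 and 47.9 CPM with 4HBP and at 49.9, 49.7 and 53.5 CPM in controls. The groups overlapped and the test was not passed (log2 fold change 0.01, 95% confidence interval −0.16 to 0.17, adjusted p = 0.964 by edgeR). The interval leaves room for changes of this size in either direction. As a ratio of TPM levels, Nfe2l2 to Keap1 was 8.25 ± 1.10 (SD, n = 3) with 4HBP and 4.92 ± 0.493 (n = 3) in controls, with no overlap, at an exact two-sided permutation p of 0.1, the smallest that 3 against 3 libraries can give.

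The rate-limiting step of glutathione synthesis is carried out by glutamate cysteine ligase, and of its subunits only Gclc was called. Gclc (chr9:77754535-77794485), the catalytic subunit, stood at 116, 123 and 122 CPM with 4HBP and at 95.01, 95.8 and 109.8 CPM in controls. The groups did not overlap, and Gclc rose by a log2 fold change of 0.23 ± 0.07 (1.17-fold, adjusted p = 0.0307 by edgeR). Gclm (chr3:122245557-122270732), the modifier subunit, stood at 85.9, 92.5 and 90.6 CPM against 82.4, 85.6 and 89.0 CPM, and its groups overlapped (log2 fold change 0.03, 95% confidence interval −0.08 to 0.15, adjusted p = 0.741). On the deposited TPM its groups did not overlap, at 80.14 to 80.74 TPM with 4HBP and 72.56 to 78.35 TPM in controls (adjusted p = 0.5 by limma on log2(TPM+1)). Whether the effects on the subunits differ was examined only as the Gclc to Gclm ratio of TPM levels, which was 0.623 ± 0.034 (n = 3) with 4HBP and 0.563 ± 0.019 (n = 3) in controls, at an exact permutation p of 0.1, the smallest possible. Gclm was the only one of the 10 genes with expected counts that were not whole numbers (in 6 libraries), and it overlaps a processed pseudogene, Gm6061, on the same strand.

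The call for Gclc was lost in a fit of the 6 proliferation libraries alone (adjusted p = 0.111 by edgeR, with 7.43% of genes called) and when any of 6 libraries was left out: 4HBP replicate 1 or 2, control replicate 1 or 2, or either differentiation control (adjusted p from 0.0505 to 0.115).

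Reduction of oxidised thiols uses NADPH through glutathione reductase and thioredoxin reductase. Gsr (chr8:33652523-33698163), glutathione reductase, stood at 54.5, 66.3 and 55.2 CPM with 4HBP and at 46.8, 38.0 and 50.2 CPM in controls. All treated libraries were higher, with a log2 fold change of 0.35 ± 0.11 (1.28-fold, adjusted p = 0.041 by edgeR). The call for Gsr was lost without any of the same 6 libraries, without differentiation 4HBP replicate 2 or 3 (adjusted p from 0.0504 to 0.175 over the 8), and in the fit of the proliferation libraries alone (adjusted p = 0.110).

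Txnrd1 (chr10:82833951-82897712), cytosolic thioredoxin reductase, stood at 262, 311 and 267 CPM with 4HBP and at 194, 191 and 224 CPM in controls. No treated library fell within the control range, and Txnrd1 rose 1.35-fold (log2 fold change 0.43 ± 0.08, adjusted p = 0.00382 by edgeR). The gene overlaps Eid3 on the same strand, so reads of the shared part can be assigned to either, though its expected counts were whole numbers in every library.

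Srxn1 (chr2:152105516-152111376), sulfiredoxin, which repairs overoxidised peroxiredoxins, stood at 69.2, 93.6 and 66.4 CPM with 4HBP and at 54.8, 46.6 and 79.1 CPM in controls. The groups overlapped, since control replicate 3 lay above 2 of the treated libraries (log2 fold change 0.31, 95% confidence interval −0.05 to 0.68, adjusted p = 0.232 by edgeR). Without that control library Srxn1 passed the test (adjusted p = 0.0129).

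Haem oxygenase 1, encoded by Hmox1 (ENSMUSG00000005413, chr8:75093621-75100589), breaks haem down to biliverdin, carbon monoxide and iron. It stood at 128, 146 and 175 CPM with 4HBP and at 71.3, 64.6 and 95.8 CPM in controls. Every treated library was higher than every control, and the change was 1.88-fold (log2 fold change 0.91 ± 0.13, adjusted p = 0.00065 by edgeR). Relative to the constitutive enzyme Hmox2, as a ratio of TPM levels, Hmox1 was at 4.44 ± 0.895 (n = 3) with 4HBP and 2.15 ± 0.582 (n = 3) in controls, at the smallest exact permutation p of 0.1.

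Nqo1 (chr8:107388225-107403206), the quinone reductase that is often read as a reporter of NRF2 activity, was low. It stood at 2.08, 1.43 and 2.64 CPM with 4HBP and at 2.53, 2.95 and 2.15 CPM in controls. The groups overlapped and the estimate pointed down (log2 fold change −0.35, 95% confidence interval −0.81 to 0.11, adjusted p = 0.299 by edgeR), so that a rise of more than 0.11 on the log2 scale lay outside the interval.

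Osgin1 (chr8:119434124-119446256), an oxidative stress induced growth inhibitor, was also low, at 2.22, 4.00 and 4.22 CPM with 4HBP and 1.34, 0.714 and 1.77 CPM in controls. The CPM of all treated libraries was higher than that of all controls, although the lowest treated library lay close to the highest control. By edgeR Osgin1 had the largest log2 fold change of the 10 genes and the largest error (1.41 ± 0.29, 2.66-fold, adjusted p = 0.00607 by edgeR). On the deposited TPM the groups overlapped, with 1.58, 2.94 and 4.49 TPM in the treated libraries against 2.71, 1.37 and 2.10 TPM, and the group means differed 1.46-fold (adjusted p = 0.592 by limma on log2(TPM+1)).

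Within the proliferation controls, replicate 3 held the highest CPM of 9 of the 10 genes, all but Nqo1, whereas it held the highest value for 32.9% of all genes tested. Within the 4HBP libraries of that medium, replicate 1 was lowest for 7 of the 10, against 40.9% of all genes, and the library that stood apart, replicate 3, was highest for 4 of the 10, against 49.8% of all genes. Without 4HBP replicate 3 the same 6 genes were called, and without control replicate 3 these 6 and Srxn1 were called. Nfe2l2, Hmox1, Txnrd1 and Osgin1 were called in every fit that left out a library.

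The count depended on the test. In a fit of the proliferation libraries alone edgeR called 4 of the 10, with 7.43% of 14449 genes called. DESeq2 called the same 6 genes as the main fit, all higher. It called 10.5% of 27110 genes, which include any that its own filtering left without an adjusted p. These genes were given to it without the filter on low counts. The limma test on log2(CPM+1) that follows the study's methods called 0 of the 10 after adjustment (adjusted p from 0.127 to 0.910, with 0.245% of 27295 genes called, also without that filter), although 6 had an unadjusted p under 0.05. At the study's own thresholds, which set an unadjusted p under 0.05 beside a log2 change of more than 0.58 either way, limma called 3 genes, Nfe2l2, Hmox1 and Osgin1, against a background of 2.12% of genes. At these thresholds it called 0 of the 10 in differentiation medium (0.18% of all genes), and 3 for the difference between media (3.39%). On the deposited TPM, limma on log2(TPM+1) over the same 15920 genes, an alternative chosen after seeing the data, called 0 of the 10 after adjustment (0.0126% of genes) and had 5 at an unadjusted p under 0.05, the 6 edgeR calls without Osgin1. The direction of all 10 log2 fold changes was the same as by edgeR.

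**Figure D2:**
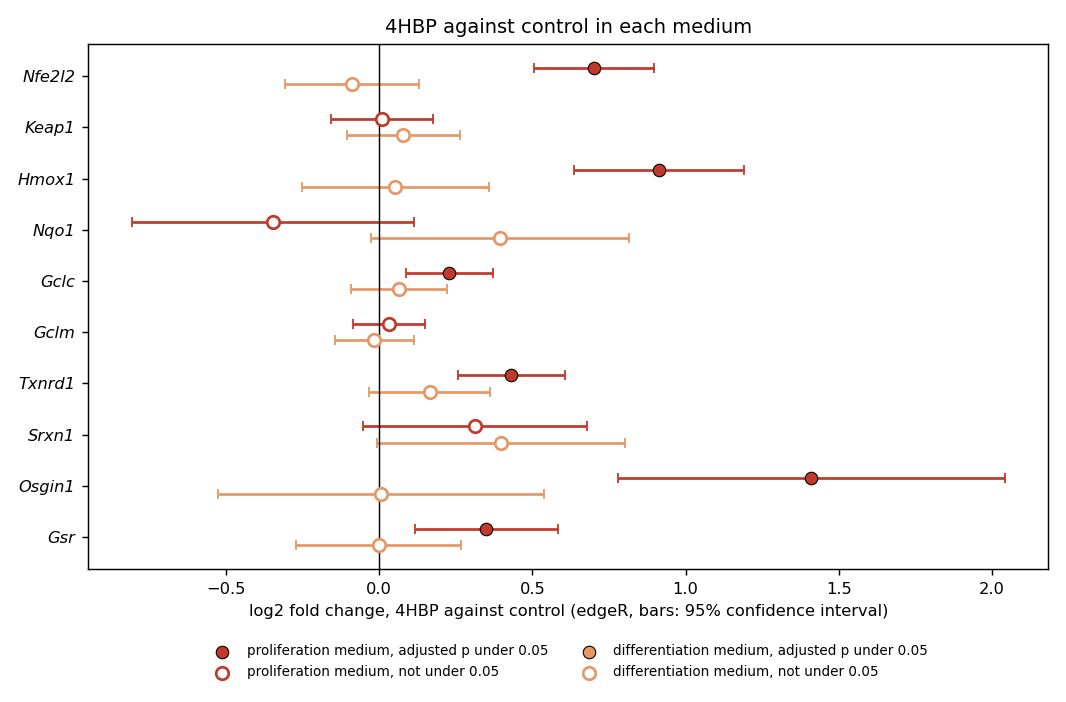
Log2 fold change of 4HBP against control for the 10 genes in proliferation medium (3 against 3 libraries) and differentiation medium (3 against 2), with 95% confidence intervals from edgeR; filled points had an adjusted p under 0.05. In proliferation medium 6 genes are filled, from Gclc at 0.23 to Osgin1 at 1.41, and in differentiation medium no gene is filled.

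Other genes of the pathway were followed in 9 lists by role, 91 of whose 100 genes could be tested. With 4HBP in proliferation medium 11 of the 91 rose and 8 fell, and the median log2 fold change was −0.07, against −0.0011 for all genes tested. The called share lay near the background of 16.8%.

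Among partners and regulators of NRF2, 2 of 13 rose and 0 fell. Sqstm1, the autophagy receptor p62 that competes for KEAP1, went from 234 CPM ± 6.15 (SD, n = 3) to 368 CPM ± 76.1 (n = 3), a log2 fold change of 0.62 ± 0.10 (adjusted p = 0.0012 by edgeR). Nfe2l1, the NRF2 relative that drives proteasome genes, rose by 0.50 ± 0.08 on the log2 scale (adjusted p = 0.00137). The small MAF partners, Bach1 and Bach2, and the ligase subunits Cul3 and Rbx1 were in the 11 that did not pass.

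Among the 9 lists, supply and export of glutathione held the largest called changes. Slc7a11, the cystine importer xCT, went from 46.3 CPM ± 17.3 (n = 3) to 132 CPM ± 27.2 (n = 3), 2.77-fold (log2 fold change 1.47 ± 0.20, adjusted p = 0.00059 by edgeR). Its partner chain Slc3a2 went from 213 CPM ± 28.6 to 480.2 CPM ± 88.9, 2.19-fold (1.13 ± 0.11, adjusted p = 7.3e-05). Neither gene's groups overlapped.

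In the same list Abcc4, Gss and Abcc1 rose by 0.61, 0.36 and 0.28 on the log2 scale and Oplah, the oxoprolinase of glutathione breakdown, fell by 0.40, so that 5 of 11 tested genes rose and 1 fell. Gss is glutathione synthetase, and the ABC transporters Abcc1 and Abcc4 export glutathione or its conjugates.

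Enzymes that spend glutathione or run in parallel with it moved in both directions. Of 18 glutathione S-transferases tested, Gsto1 (0.44) and Gstm1 (0.26) rose and Gstt1 (−1.04) fell on the log2 scale, and these families hold close paralogs between which reads can be split. Of 9 glutathione peroxidases and glutaredoxins, only Glrx passed the test, and fell by 0.58. Of 13 thioredoxin and peroxiredoxin genes, Sesn2 rose by 0.58, whereas Sesn1, Prdx6 and Prdx1 fell by 0.39, 0.31 and 0.29.

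Outside thiol chemistry, Ephx1, microsomal epoxide hydrolase, rose by 0.85 ± 0.12 on the log2 scale (adjusted p = 0.00071 by edgeR) as the only 1 of 11 detoxification genes to pass. Idh1, a cytosolic source of NADPH, fell by 0.52 and was the only 1 of 6 in its list, which also holds G6pdx, Pgd, Tkt, Taldo1 and Me1. Sod1 fell by 0.21, the only 1 of 4 superoxide dismutase and catalase genes. None of the 6 tested haem and iron genes passed the test, Fth1, Ftl1 and Hmox2 included. The calls for Oplah, Prdx1 and Glrx held in 6, 6 and 7 of 19 alternative fits.

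**Figure D3:**
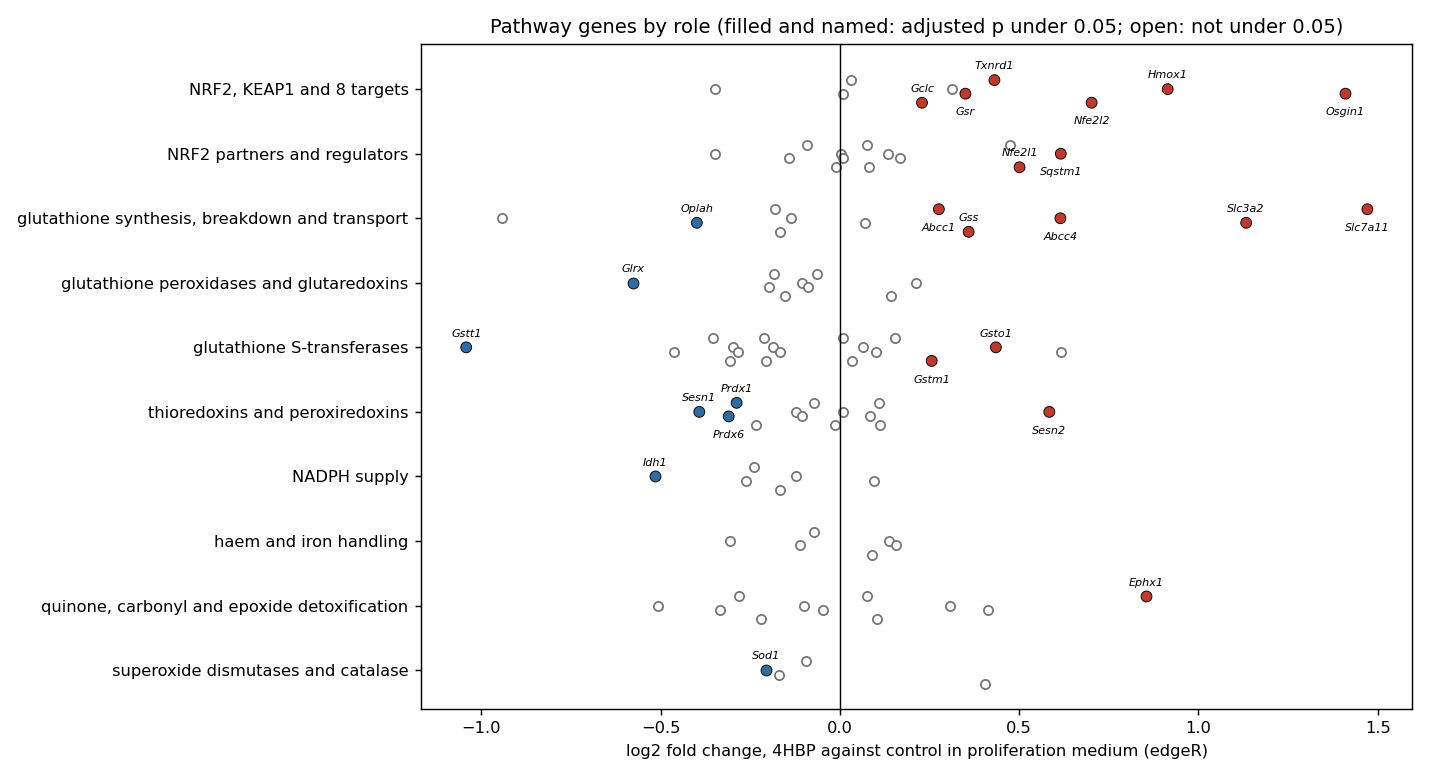
Log2 fold change of 4HBP against control in proliferation medium (edgeR, 3 against 3 libraries) for the 10 genes and for 91 other pathway genes by role, each point a gene; filled, named points had an adjusted p under 0.05. Among the filled points of the 9 lists, the glutathione supply list holds the largest rises (Slc7a11 at 1.47 and Slc3a2 at 1.13). Osgin1 of the 10 genes lies between them at 1.41, and the haem and iron list holds no filled point.

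In differentiation medium none of the 10 genes passed edgeR's test in the fit of all 11 libraries after adjustment, and none had an unadjusted p under 0.05 there. By limma on log2(CPM+1) 4 of the 10 (Nfe2l2, Nqo1, Srxn1 and Txnrd1) had an unadjusted p under 0.05 and 0 an adjusted one, and edgeR on the 5 libraries of this medium gave the same 4 at an unadjusted p under 0.05. Across all genes edgeR's fit of all 11 libraries called 0.0%, with 644 of 15920 genes at an unadjusted p under 0.05. EdgeR on the 5 libraries had 2460 of 15484 genes at an unadjusted p under 0.05, and limma 3129 of 27295. Nfe2l2 stood at 174, 182 and 177 CPM with 4HBP and at 189 and 193 CPM in the controls. Here every treated library lay below both controls, by a log2 fold change of −0.09 (95% confidence interval −0.31 to 0.13).

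Hmox1 stood at 112, 106 and 116 CPM with 4HBP and at 113 and 104 CPM in controls, and the groups overlapped (log2 fold change 0.05, 95% confidence interval −0.25 to 0.36). Osgin1 stood at 8.45, 8.84 and 8.79 CPM against 9.90 and 7.59 CPM, and Gsr at 32.5, 27.6 and 28.4 CPM against 30.8 and 28.9 CPM. For both, the controls spanned the treated libraries or overlapped them. The same was so of Gclc, Gclm and Keap1, whose log2 fold changes were 0.06, −0.02 and 0.08.

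Srxn1 stood at 101, 99.8 and 100.2 CPM with 4HBP and at 79.9 and 74.0 CPM in controls, a log2 fold change of 0.40 (95% confidence interval −0.01 to 0.80, unadjusted p = 0.054 in the fit of all 11 libraries by edgeR). As TPM its ranges overlapped, at 67.2 to 79.3 TPM with 4HBP and 57.1 to 67.8 TPM in controls. Txnrd1 stood at 209.8, 206 and 218 CPM against 197 and 184 CPM, and Nqo1 at 7.51, 8.02 and 8.64 CPM against 6.61 and 5.76 CPM. In these 3 genes the CPM of all treated libraries was higher than that of both controls, and with Nfe2l2 4 of the 10 genes did not overlap between groups, where 32.5% of all genes did not.

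When only the 5 differentiation libraries entered the fit, edgeR called Srxn1 (log2 fold change 0.39 ± 0.04, adjusted p = 0.0002) and Txnrd1 (0.16 ± 0.04, adjusted p = 0.0482), with 2.56% of genes called. Srxn1 was also called without the filter on low counts (adjusted p = 0.0045, with 0.425% of genes called). DESeq2 called 0 of the 10 after adjustment, where it called 0.0184% of all genes given to it, and had Srxn1 at an unadjusted p under 0.05. Astrocyte, oligodendrocyte lineage and neuronal marker sums overlapped between groups in this medium. Dividing cell markers summed to 186 to 208 CPM with 4HBP and 158 to 178 CPM in controls, the opposite direction to proliferation medium, and neural stem cell markers to 1137 to 1213.2 CPM against 1213.4 to 1295 CPM, so neither sum overlapped. Their part in the values of the 10 genes was not tested.

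Of the 91 other pathway genes none passed edgeR's test with 4HBP in differentiation medium.

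The difference of the 4HBP effect between media was tested as an interaction, which uses all 11 libraries and so shares them with the comparisons above. It was called for 2 of the 10 genes, where 4.49% of all genes were called, 2.01% of all in the same direction. For Nfe2l2 the log2 fold change was larger by 0.79 ± 0.14 in proliferation medium (adjusted p = 0.00814 by edgeR), and for Hmox1 by 0.86 ± 0.19 (adjusted p = 0.0243). Osgin1 had the largest difference, 1.40 ± 0.38, and did not pass (adjusted p = 0.0578), and on TPM it was 0.25 (adjusted p = 0.79 by limma). For Txnrd1, Gsr and Gclc the differences were 0.27, 0.35 and 0.17, with adjusted p of 0.245, 0.255 and 0.373, so a difference between media was not shown for them although they were called in proliferation medium and not in differentiation medium. For Nqo1 the difference was −0.74 ± 0.29 (adjusted p = 0.173), with the estimate down in proliferation medium and up in differentiation medium.

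The interaction rested on few differentiation controls. Without differentiation control replicate 2 neither gene was called (adjusted p = 0.0571 for Nfe2l2 and 0.0838 for Hmox1 by edgeR). Hmox1 also lost its call without proliferation control replicate 1, without any of the differentiation 4HBP replicates, or without differentiation control replicate 1 (adjusted p from 0.0523 to 0.127), where Nfe2l2 kept it. On TPM, limma called neither (0.855 with adjusted p = 0.0529 for Nfe2l2, 0.93 with adjusted p = 0.0959 for Hmox1), with 0.616% of genes called.

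Several of the 10 genes also differed between media, at shares near those of all genes. Differentiation against proliferation medium was compared in controls (2 against 3 libraries) and, in libraries that comparison does not use, under 4HBP (3 against 3). The first shares the proliferation controls and the second the proliferation 4HBP libraries with the treatment comparison. In controls 5 of the 10 genes were higher and 1 lower in differentiation medium, where 61.4% of all genes were called, 30.8% as higher and 30.6% as lower. Under 4HBP 4 were higher and 4 lower, against 67.2% of all genes, 33.3% as higher and 33.8% as lower. At the study's limma thresholds 2 were called in controls (19.1% of all genes) and 4 under 4HBP (20.9%). Groups did not overlap for 6 and 9 of the 10 genes, against 76.6% and 70.9% of all genes.

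The scale bore on directions between media. On the deposited TPM the median log2 difference of all genes tested was 0.30 in controls and 0.26 under 4HBP, against 0.03 and 0.01 by edgeR. Limma on log2(TPM+1) called 8 of the 10 genes in each comparison, with 62.2% and 65.8% of all genes called. Gclc, Gclm, Nqo1 and Osgin1 were called higher in both comparisons on both scales, and the other 6 differed between scales in at least 1 call or direction.

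Markers moved with the medium too. Astrocyte markers summed to between 6753 and 7011 CPM in differentiation medium, oligodendrocyte lineage markers to between 7481 and 7900 CPM and dividing cell markers to between 158 and 208 CPM. Of the astrocyte genes, Slc1a2, Gja1, Aqp4 and S100b averaged higher in differentiation controls than in proliferation controls. Gfap (1591 against 2306 CPM) and Aldh1l1 (283 against 801 CPM) averaged lower there. The mesenchymal and mural sum went from at most 3.71 CPM to between 28.2 and 32.5 CPM. Its rise came from Pdgfrb (0.699 CPM in proliferation and 29.3 CPM in differentiation controls). Col1a1, Col1a2, Dcn and Lum stayed at or under 0.593 CPM, and Rgs5 averaged lower in differentiation medium. The part of these markers in the differences between media was not tested.

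The genes of low abundance in proliferation medium were higher in differentiation medium. Osgin1 averaged 1.27 CPM in proliferation controls and 8.75 CPM in differentiation controls, 6.44-fold higher (log2 fold change 2.69 ± 0.29, adjusted p = 4.2e-06 by edgeR; 3.98-fold between mean TPM), and under 4HBP it was 2.43-fold higher (1.28 ± 0.24, adjusted p = 0.00035). Nqo1 averaged 2.54 CPM and 6.19 CPM in controls, 2.29-fold higher (1.19 ± 0.21, adjusted p = 0.00027), and was 3.82-fold higher under 4HBP (1.93 ± 0.19, adjusted p = 1.6e-06).

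The subunits of glutamate cysteine ligase were higher in both comparisons. In controls the log2 fold change was 0.41 ± 0.07 for Gclc (adjusted p = 0.00027 by edgeR) and 0.42 ± 0.06 for Gclm (adjusted p = 4.5e-05). Under 4HBP it was 0.25 ± 0.07 for Gclc and 0.37 ± 0.05 for Gclm.

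Gsr was the only one of the 10 genes that edgeR called lower in both comparisons, and in controls the direction turned on TPM. It averaged 45.0 CPM in proliferation controls and 29.8 CPM in differentiation controls (log2 fold change −0.68 ± 0.12, adjusted p = 0.00039 by edgeR), and under 4HBP 58.7 CPM and 29.5 CPM (−1.03 ± 0.11, adjusted p = 2.6e-06). As TPM it averaged 24.7 in proliferation controls and 28.7 in differentiation controls, with overlapping ranges (log2 difference 0.21, adjusted p = 0.193 by limma, or −0.09 relative to the median of all genes). Under 4HBP it averaged 34.4 and 27.7 TPM, and the ranges overlapped at 28.8 to 38.1 and 26.8 to 28.9 (−0.295, at an adjusted p that rounds to 0.05).

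Hmox1 was called in opposite directions by edgeR. In controls it was higher in differentiation medium, at 108 CPM against 77.2 CPM on average (log2 fold change 0.40 ± 0.14, adjusted p = 0.025 by edgeR), a call lost without proliferation control 1 or 2 or either differentiation control. Under 4HBP it was lower, at 111 CPM against 149 CPM (−0.46 ± 0.13, adjusted p = 0.00574). On TPM it was higher in controls (0.825, adjusted p = 0.00198 by limma), and under 4HBP its ranges overlapped and the test was not passed (−0.10, adjusted p = 0.568). The interaction above is the test of this difference.

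Nfe2l2 did not pass in controls (191 CPM in both media on average, log2 fold change −0.09, 95% confidence interval −0.31 to 0.13) and was lower in differentiation medium under 4HBP, at 178 CPM against 319 CPM (−0.88 ± 0.09, adjusted p = 2e-06 by edgeR). Txnrd1 showed the same pair of results, with −0.18 in controls (adjusted p = 0.101) and −0.45 ± 0.08 under 4HBP (adjusted p = 0.00028). Srxn1 and Keap1 passed in neither, with log2 fold changes of 0.27 and 0.35 for Srxn1 and of −0.03 and 0.04 for Keap1.

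On TPM the lower Nfe2l2 under 4HBP was called too (−0.52, adjusted p = 0.00177 by limma), while in controls Nfe2l2 was higher in differentiation medium, at 141 TPM against 112 TPM (0.34, adjusted p = 0.0315), a difference within 0.04 of the median of all genes. Txnrd1 was at 0.25 in controls and −0.07 under 4HBP and passed in neither. Srxn1 (0.75 and 0.70) and Keap1 (0.38 and 0.42) were called higher in both, which leaves 0.45 and 0.45 for Srxn1 and 0.08 and 0.16 for Keap1 relative to that median.

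**Figure D4:**
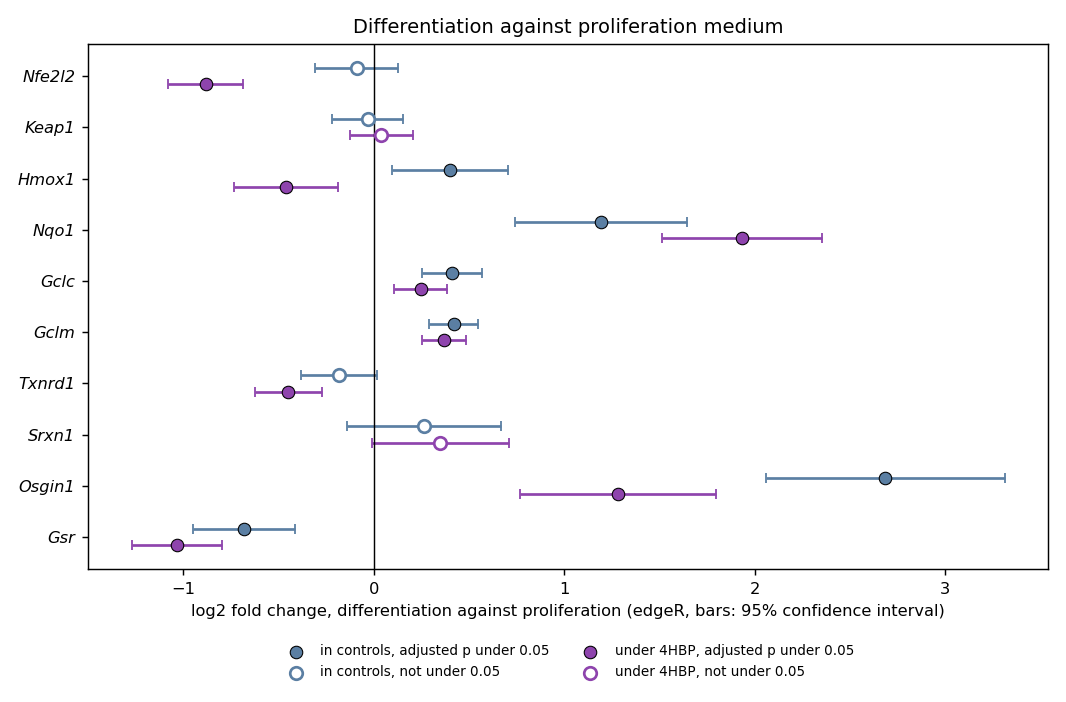
Log2 fold change of differentiation against proliferation medium for the 10 genes in controls (2 against 3 libraries) and under 4HBP (3 against 3), with 95% confidence intervals from edgeR; filled points had an adjusted p under 0.05. Osgin1 and Nqo1 lie to the right in both comparisons, Gsr lies to the left in both, and Hmox1 changes side, from 0.40 to −0.46. On TPM, which is not plotted, Gsr was at 0.21 in controls and Hmox1 at −0.10 under 4HBP, neither called.

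Among the other pathway genes 39 of 91 were higher and 26 lower in differentiation medium in controls, and 41 and 27 under 4HBP. These are 71.4% and 74.7% of the 91, against 61.4% and 67.2% of all genes. On TPM 6 of the 65 called genes changed sign in controls and 7 of the 68 under 4HBP, and of the genes named here as called none did. Glutathione S-transferases were called in 9 of 18 cases in controls, a smaller share than of all genes, with log2 fold changes of 2.48 for Gstt3, 2.17 for Gstm1 and 1.86 for Gstk1, and 8 of the 9 were higher. Ggt1, the gamma-glutamyl transferase that opens glutathione breakdown outside the cell, rose by 2.52 and Oplah by 1.65, while Chac1 and Chac2, which cleave glutathione inside the cell, fell by 1.76 and 1.21. Of the 6 NADPH genes, 5 were lower in controls, led by Me1 at −1.16, and Taldo1 was higher at 0.59.

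Iron storage genes were higher, Fth1 by 0.96 and Ftl1 by 0.49 on the log2 scale. Peroxiredoxins Prdx6, Prdx1 and Prdx5 were higher by 1.16, 0.61 and 0.56, while Txn1 was lower, at −0.57, a call lost on TPM (−0.17, adjusted p = 0.197 by limma). Gpx3, the secreted glutathione peroxidase, fell by 2.26. Among regulators, Mafk rose by 1.16 and Cul3 fell by 0.55. Under 4HBP, Gstt3, Gstm1, Gstk1, Ggt1, Oplah, Fth1, Prdx6 and Mafk were called higher again, and Chac1, Chac2, Me1, Gpx3 and Cul3 lower again.

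The gene whose pattern over the 11 libraries came closest to that of Nfe2l2 among 15919 others was Susd6, with a root mean square difference of 0.073 in centred log2 CPM. N4bp1 (0.0912), Plk2 (0.0955), Thumpd3 (0.0968) and Polr1a (0.101) followed. Of the other 9 genes described here Txnrd1 came closest, at rank 194 (0.187), before Gsr at rank 1116 and Hmox1 at rank 1397. Keap1 stood at rank 5140, and Nqo1 and Osgin1 stood at ranks 14310 and 14738. The libraries share their medium and treatment, so this order describes a pattern and was not tested.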

How the data were processed

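The 11 libraries of bulk stranded RNA sequencing were grouped by their sample labels. The authors checked reads with FastQC 0.11.5, trimmed them with cutadapt, and used RSEM 1.3.0 with Bowtie2 2.2.9 for alignment and quantification on mm10 (GRCm38) with GENCODE genes. The deposited expected counts are estimated counts per gene without normalization, and the deposited TPM values are scaled by the authors for gene length and depth. Gene symbols came from GENCODE vM21, which matched 99.8% of identifiers. Members and lists were chosen with earlier results of these data known.

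Expected counts were rounded, filtered with filterByExpr by group, scaled by TMM, and the 4 group means were fitted over all libraries in edgeR 4.0.16 (R 4.3.3) by glmQLFit; 5 contrasts were tested by glmQLFTest, two-sided, with Benjamini-Hochberg adjustment over 15920 genes and a threshold of 0.05. The study used limma on log2(CPM+1); the count test was preferred because the files hold expected counts. Alternatives were DESeq2 1.42.0, library totals, no filter, limma 3.58.1 with a pseudocount of 1 or 0.1, the compared libraries alone, the replicate number as a block, and each library left out. Limma on log2(TPM+1) was added after the data were seen. CPM are counts-per-million of the library total. Scripts were tested on simulated counts. Ratios of TPM were compared by exact permutation. Other genes are named as the up to 3 highest and 3 lowest called of each list, and the 5 likest to Nfe2l2 by root mean square difference of centred log2 CPM (prior count 2). Abcc1 and Gss, outside this rule, were named after their values were seen.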

Additional observations from a re-analysis of the deposited data

Results flagged for a closer look

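The 4HBP effect differed between proliferation and differentiation medium, by edgeR's interaction test at an adjusted p under 0.05, for 10 genes among the 10 described and the 91 other pathway genes. The log2 fold change in proliferation minus that in differentiation medium was 0.79 for Nfe2l2 and 0.86 for Hmox1. It was 1.25 for Slc3a2 and 1.17 for Slc7a11, the chains of the cystine importer, 0.72 for Sqstm1 and 0.46 for Nfe2l1. It was 0.88 for Ephx1. It was negative for Idh1 (−0.70), Gstm5 (−0.40) and Sod1 (−0.32). The calls held in 18 of 18 alternative fits of counts or CPM for Slc3a2, 16 for Nfe2l2, 14 for Idh1, 13 for Sqstm1, 12 for Ephx1, 10 for Hmox1, 8 for Slc7a11, 6 for Nfe2l1, 5 for Gstm5 and 3 for Sod1. On TPM, limma on log2(TPM+1) called 1 of the 91 other genes and 0 of the 10 for this difference, with 0.616% of all genes called.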

How the results depend on the processing

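With 4HBP in proliferation medium 6 of the 10 genes were called, 0 by limma on log2(CPM+1) or log2(CPM+0.1) with adjustment (6 at an unadjusted p under 0.05 in each), 3 with the study's thresholds, and 4 to 7 when libraries were left out in turn. With only the compared libraries, 6 became 4 in proliferation medium. In differentiation medium 0 became 1 without the filter and 2 with only the compared libraries. The difference between media was called for 2 genes, 1 by limma on log2(CPM+1), 0 on log2(CPM+0.1) (4 at an unadjusted p under 0.05), and 0 to 3 with a library left out, with 0 without differentiation control replicate 2. The medium comparisons gave 2 (controls) and 4 (4HBP) of 6 and 8 with the study's thresholds. With the replicate block the counts were 4, 0, 2, 7 and 9 in the 5 comparisons. The calls over all genes with 4HBP in proliferation medium went from 2668 to 1479 with it. Deviations of same-numbered libraries from their group means correlated at −0.06 to 0.02, so no shared effect of the number showed. Whether the numbers pair the samples is not given. Limma on log2(TPM+1), chosen after seeing the data, called 0, 0, 0, 8 and 8 genes, and turned the sign of Srxn1 for the difference between media (0.048) and, for the medium in controls, of Nfe2l2 (0.338), Keap1 (0.378), Txnrd1 (0.248) and Gsr (0.21). Of 940 other alternative values of the 10 genes, 827 kept direction and side of the threshold, 58 lost and 21 gained a call, and 34 changed sign, each of them uncalled. In differentiation medium with 4HBP, Osgin1 was at −0.007 with library totals and −0.001 without the filter, and Gsr at 0.001 by DESeq2 and 0.015 with the replicate block. Differentiation against proliferation in controls gave Nfe2l2 0.01 by limma and 0.056 with the block, and Keap1 0.057 with library totals, 0.056 or 0.057 by limma and 0.008 with the block. With a library left out, signs changed within these ranges: with 4HBP in proliferation medium, Keap1 −0.048 to 0.097 and Gclm −0.01 to 0.065, with 4HBP in differentiation medium, Hmox1 −0.004 to 0.099, Osgin1 −0.175 to 0.196 and Gsr −0.072 to 0.044, for the difference between media, Keap1 −0.13 to 0.018 and Srxn1 −0.269 to 0.169, and for the medium, Nfe2l2 −0.165 to 0.056 and Keap1 −0.083 to 0.033 in controls and Keap1 −0.048 to 0.098 under 4HBP. Depth limits Nqo1 and Osgin1, at 0.714 to 9.90 CPM. The causes were not tested.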
